A study of Mus musculus with 3 samples.

Results

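Ring1B peaks that stand close together in neural progenitor cells were collected into chains, and 61 chains of 5 or more peaks were found. A chain joins neighbouring Ring1B peaks on a chromosome wherever the gap between them is at most 5000 bp, so the members were chosen by the measured positions of the Ring1B peaks, and their number, gaps, spans and widths are a description. The chains held 432 of the 11790 Ring1B peaks (3.66%) and 5.21% of all Ring1B-covered bases. The other Ring1B peaks were 8915 lone peaks and 2443 peaks in 1078 chains of 2 to 4. The data come from chromatin immunoprecipitation with sequencing (ChIP-seq) in mouse progenitors grown in N2 medium with EGF and FGF2, all derived from the embryonic stem cell line E14TG2a. The groups are 1 Ring1B library, 1 Zrf1 library and 1 rabbit IgG library as control, without any other treatment or allele in the labels. The antibodies to Ring1B and Zrf1 were made in the laboratory named in the labels, and IgG signal at the chains was not analysed here. With 1 library per antibody no value has an error between samples, and read depth is unknown from the interval lists.

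The gene Rnf2 encodes Ring1B, the subunit that gives Polycomb repressive complex 1 (PRC1) its ubiquitin ligase activity toward histone H2A, a mark found at developmental genes that a cell keeps silent. Polycomb proteins are known for covering whole gene clusters, such as the Hox clusters, in broad domains rather than at single sites. Zrf1, encoded by Dnajc2, is a chaperone-related protein known to bind ubiquitylated H2A. PRC1 is known to reach CpG-rich promoters in part through partner proteins that bind unmethylated CpG.

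The loci below were named by hand from general knowledge of where mouse genes lie, since no gene annotation of mm9, the genome build of the peak lists, was used. Candidate genes were put forward for each of the 61 chains and compared with the mouse gene table of RefSeq (GRCm38.p6). Genes were kept where chromosome, order and spacing were judged near those of the chains and the locus was a known regulatory gene. This left 52 chains named, at 49 loci with 91 genes, and 9 not named. Among the candidates given up were developmental genes too, and in some chains part of the candidates was given up. The choice was made with the Zrf1 peaks of each chain in view. The figures on order and spacing therefore describe the names that were kept and are no independent check of them. The genes of all 49 loci were on the chromosome of their chain, and all 31 pairs of neighbouring loci had the same order. Spacing between neighbours differed between chains and genes by a median of 31.7 kb, with the largest difference 2488 kb, between Sox1 and Hand2. Of the 31 pairs, 19 differed by under 50 kb and 25 by under 250 kb, and the pairs that differed more were kept too. The 3 loci that stand alone on their chromosome, Hmx2-Hmx3, Tbx18 and HoxC, had no such check of spacing. Which promoter, exon or intron a peak covers was not analysed.

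Promoter sequences show how far the CpG content of genes at these loci ranges. RefSeq (GRCm38.p6) gave an upstream sequence for 57 of the 91 genes (62.6%), below the 80% needed for a statement on the set, so single promoters are shown. They are the promoters with the most and the fewest CpG among genes with 1 listed start, chosen apart for loci with and without Zrf1. Hmx3 and Hoxc4 are at loci with a Zrf1 peak in the chain, Pou4f1 and Hoxd4 at loci without. The sorting is by whole chain, and the distance from a promoter to a Zrf1 peak was not analysed. Hoxa9, not shown, has 3 CpG like Hoxd4. Each is the 250 bases before the start, 5′ to 3′ on the strand of the gene, with every CpG in capitals. Positions in this paragraph are numbered in GRCm38.p6 and are not comparable with the mm9 positions elsewhere. Hmx3 is at chr7:131542713-131542962 on the plus strand and Hoxc4 at chr15:103034145-103034394 on the plus strand. Pou4f1 is at chr14:104468000-104468249 on the minus strand and Hoxd4 at chr2:74721728-74721977 on the plus strand.
Hmx3: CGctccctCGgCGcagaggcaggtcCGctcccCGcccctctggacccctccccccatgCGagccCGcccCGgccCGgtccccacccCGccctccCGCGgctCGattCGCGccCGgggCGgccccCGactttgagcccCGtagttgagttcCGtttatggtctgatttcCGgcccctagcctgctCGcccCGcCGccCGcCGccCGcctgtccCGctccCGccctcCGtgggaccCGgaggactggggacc
Hoxc4: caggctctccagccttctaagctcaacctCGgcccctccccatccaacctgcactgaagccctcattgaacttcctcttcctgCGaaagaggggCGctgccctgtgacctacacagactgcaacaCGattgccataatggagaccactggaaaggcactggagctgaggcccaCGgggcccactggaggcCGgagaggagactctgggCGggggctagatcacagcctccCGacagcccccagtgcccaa
Pou4f1: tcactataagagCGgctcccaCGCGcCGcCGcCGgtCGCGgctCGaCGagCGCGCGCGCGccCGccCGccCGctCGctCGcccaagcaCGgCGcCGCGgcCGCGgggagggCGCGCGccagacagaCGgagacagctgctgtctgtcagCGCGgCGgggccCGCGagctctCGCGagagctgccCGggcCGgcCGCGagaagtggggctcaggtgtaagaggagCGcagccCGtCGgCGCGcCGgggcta
Hoxd4: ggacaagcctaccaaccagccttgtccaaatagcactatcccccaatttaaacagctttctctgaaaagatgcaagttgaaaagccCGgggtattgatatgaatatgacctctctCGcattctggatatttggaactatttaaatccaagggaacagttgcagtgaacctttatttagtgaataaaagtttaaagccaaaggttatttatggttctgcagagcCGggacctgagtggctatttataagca
The motif counted was CG, which reads the same on either strand. Hmx3 had 31 CpG and 76.8% GC, and Hoxc4 had 8 CpG and 62.0% GC. Pou4f1 had 47 CpG and 78.0% GC, and Hoxd4 had 3 CpG and 40.4% GC. Among 17492 protein-coding genes with a promoter in the table, the median was 10 CpG. At least as many CpG as in Hmx3 were held by 5.49% of them, as in Hoxc4 by 56.7%, as in Pou4f1 by 0.274% and as in Hoxd4 by 77.1%. These 4 promoters lie on either side of the median of coding genes, and whether a Ring1B peak covers them was not analysed.

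The chains were short dense domains with a few very long ones. Their number of peaks ran from 5 to 21 with a median of 6, and 22 chains had exactly 5 peaks. Their spans ran from 8.31 kb at Tcf21 to 90.1 kb at HoxA, with a median of 18.4 kb (quartiles 15.3 and 21.9 kb). Ring1B peaks covered 934 kb of the 1372 kb spanned, which is 68.1%. By chain the covered share ran from 38.4% at an unnamed chain on chromosome 8 to 97.0% at Dlx1-Dlx2, with a median of 70.2%. The widest peak made up 12.4% to 60.4% of the covered bases, the highest at Zfp503, and it was the first or last peak in 14 of the 61 chains. All 19 autosomes carried a chain, with 8 on chromosome 2, and the X chromosome carried none.

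Many of the gaps inside chains were small. Of 371 gaps, 77 (20.8%) were at most 100 bp and 230 at most 1000 bp, with a median of 529 bp. In chains of 2 to 4 peaks the median gap was 710 bp and 18.3% were at most 100 bp. With gaps of at most 100 bp joined before chaining, an alternative chosen after seeing the data, there were 41 chains of 5 or more and 9 of them held Zrf1. At the thresholds, 62 chains had exactly 4 peaks and were left out, the largest gap inside a chain was 4933 bp and the smallest at a chain end 5069 bp.

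**Figure D1:**
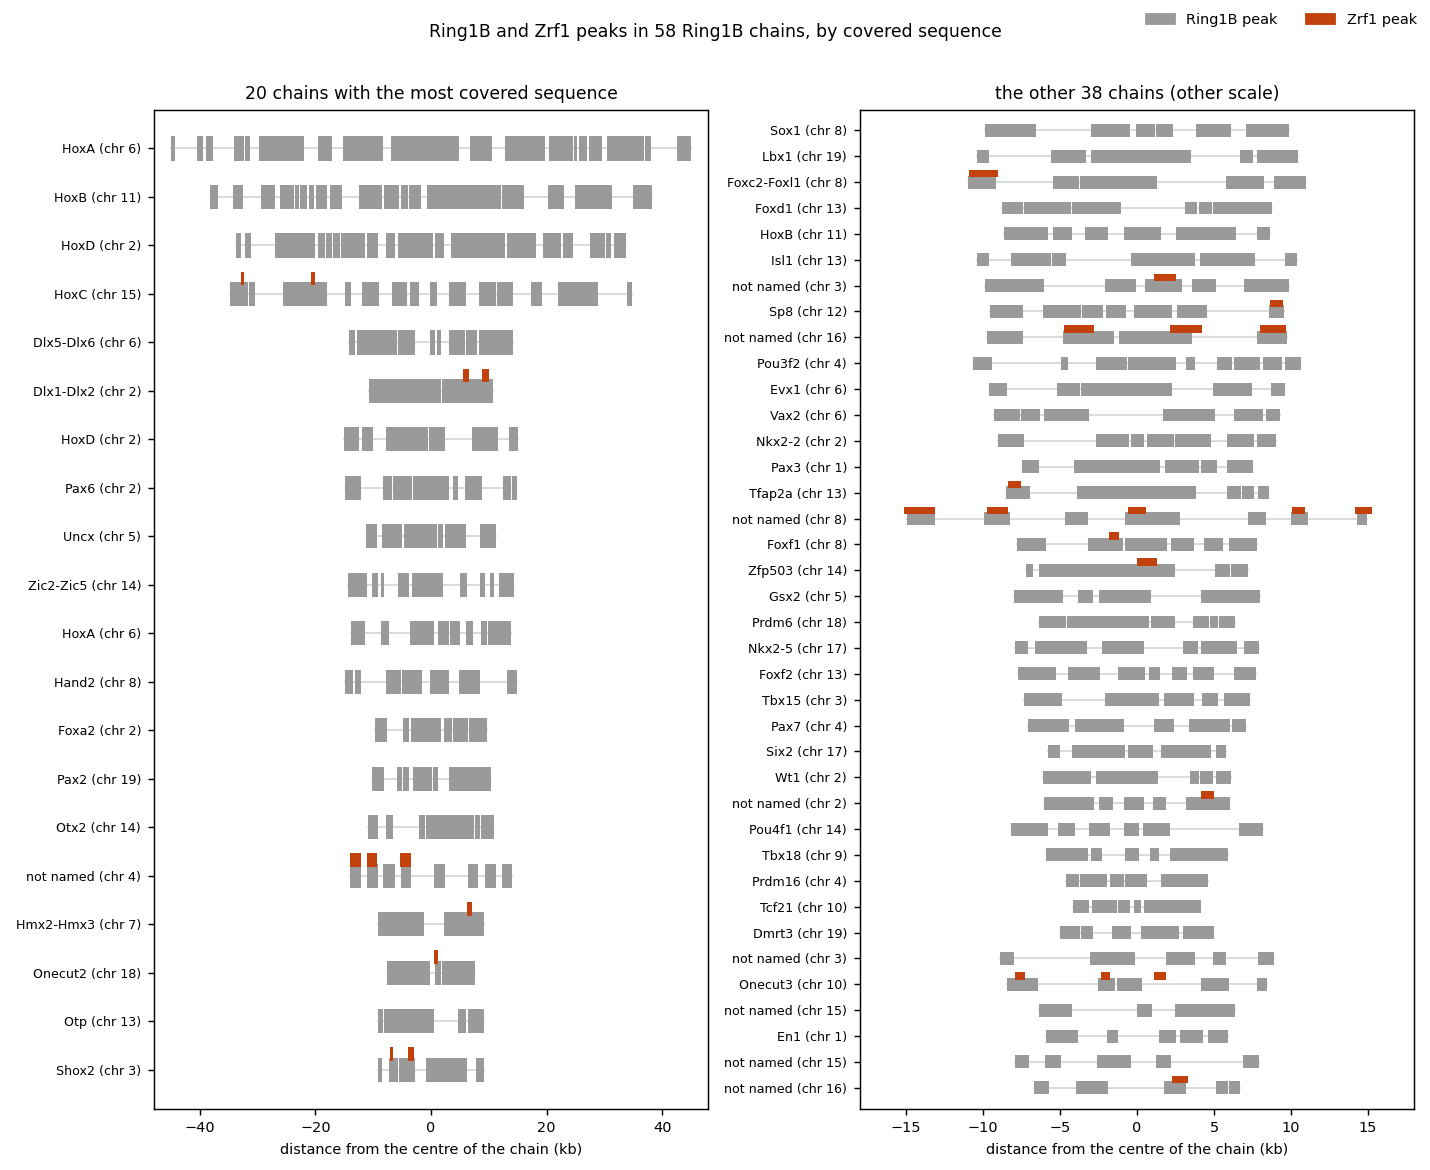
Map of 58 of the 61 chains, ordered by covered sequence and drawn as distance from the centre of each chain in kb (left, the 20 of these with the most covered sequence; right, the other 38 at a larger scale). Grey bars are Ring1B peaks and orange bars Zrf1 peaks; 17 chains carry orange bars, and HoxA, HoxB and HoxD carry none.

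Hox genes, which set position along the body axis, lay at the 4 chains with the most covered sequence. Their 7 chains held 100 peaks and 260.0 kb of Ring1B-covered sequence, 27.9% of that of the 61 chains. HoxA was split into chr6:52135677-52225817 (21 peaks, 63.7 kb covered) and chr6:52102250-52130010 (8 peaks, 17.7 kb), which lie 5.67 kb apart. HoxB was split into chr11:96112328-96188865 (20 peaks) and chr11:96201716-96218970 (6 peaks, 12.8 kb covered), 12.9 kb apart. Its larger chain held the widest peak of the 61 chains, 12813 bp. HoxD was split into chr2:74486948-74554487 (21 peaks) and chr2:74561809-74591852 (8 peaks, 20.5 kb covered), 7.32 kb apart. HoxC at chr15:102782855-102852418 had 16 peaks. Evx1, a homeobox gene next to HoxA, had its own chain of 6 peaks, 29.6 kb beyond.

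Among the named chains, homeobox genes outside the Hox clusters formed the most numerous group. They gave 21 chains with 5 to 9 peaks each and spans of 11.6 to 30.3 kb. Names were kept only for known regulatory genes, and other Ring1B peaks were not named. Counts by gene class therefore describe the names kept and have no background. Dlx5-Dlx6 and Dlx1-Dlx2, paired genes of ventral forebrain and branchial arches, were among those with the most covered sequence, at chr6:6804794-6833277 (8 peaks, 23.3 kb) and chr2:71364216-71385574 (7 peaks, 20.7 kb). Pou3f2, a POU factor of neural progenitors, had 9 peaks at chr4:22404953-22426278, with 57.0% of the span covered. Nkx2-2, a ventral neural tube factor, had 8 peaks at chr2:147003275-147021363. The group also held En1, Otx2, Otp, Isl1, Pou4f1, Six2, Nkx2-5, Lbx1, Gsx2, Uncx, Vax2, Shox2, Hmx2-Hmx3, Onecut2, Onecut3 and Evx1. Of these, Otx2 is known for forebrain and midbrain, Isl1 and Pou4f1 for motor and sensory neurons, and Gsx2 for the ventral telencephalon.

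The remaining named chains were at other regulatory genes. The 4 paired box genes Pax2, Pax3, Pax6 and Pax7 had 6 to 9 peaks. Pax6, a key factor of eye and forebrain, led them at chr2:105500088-105529997 with 9 peaks and 20.3 kb covered. The 6 forkhead chains, among them Foxf2, Foxd1, Foxa2, Foxf1 and Foxc2-Foxl1, had 5 to 7 peaks. Zinc finger factors gave 6 chains, at Sp8, Zfp503, Prdm6, Prdm16, Wt1 and Zic2-Zic5, the last with 10 peaks at chr14:122861829-122890569. Hand2, a bHLH factor of heart and limb, also had 10 peaks, at chr8:59790739-59820573, and Tcf21, another bHLH factor, had 5. Single chains lay at Sox1, Tfap2a, Dmrt3, Tbx15 and Tbx18.

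Most chains held no Zrf1 peak. A Zrf1 peak lay in the span of 18 of the 61 chains (29.5%, exact binomial 95% interval 18.5 to 42.6%, which covers counting error only). Over all 10054 chains and lone peaks of Ring1B the same count gave 18.7%, but those spans are mostly single peaks and much shorter. Counted per peak, 30 of the 432 Ring1B peaks of the chains overlapped a Zrf1 peak by at least 1 bp (6.94%, interval 4.73 to 9.77%), where the whole Ring1B list gave 16.6%. Among the 11358 Ring1B peaks outside these chains it was 1926 (16.96%, interval 16.3 to 17.7%). The share was 14.98% in chains of 2 to 4 (interval 13.6 to 16.5%) and 17.5% among lone peaks (interval 16.7 to 18.3%). In bases, 3.63% of the Ring1B-covered sequence of the chains lay under Zrf1, against 12.3% of that of the other Ring1B peaks. The chain share is thus below that of the other peaks by more than the counting error. The chain share moved with the rule of the chains, to 3.85% with gaps up to 2000 bp, 11.7% with gaps up to 10000 bp and 3.49% from 8 peaks. There is no replicate to test the difference, and neighbouring peaks are not independent.

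The lower share in the chains was also seen within classes of peak width. Chain peaks had a median width of 1754 bp, with quartiles of 1065 and 2713 bp, against 1314 bp for lone peaks. Among lone peaks the share on Zrf1 was higher in each wider class, with 14.05% under 1000 bp, 17.5% from 1000 to under 2000 bp and 24.0% from 2000 bp. In the chains the shares were 2.17% (2 of 92), 9.76% (16 of 164) and 6.82% (12 of 176) in the same classes. Under 1000 bp, the chain interval of 0.264 to 7.63% lay below that of lone peaks, 12.7 to 15.5%. Among peaks of at least 2000 bp, the chain interval of 3.57 to 11.6% lay below that of lone peaks, 21.6 to 26.5%. That class has no upper limit and is not matched in width, with a median of 2972 bp in the chains and 2379 bp among lone peaks. In the middle class, the chain interval of 5.68 to 15.4% ended close to that of lone peaks, 16.5 to 18.6%. It overlapped that of chains of 2 to 4 peaks, 12.6 to 16.6%. These intervals treat peaks as independent, but 11 of the 30 chain peaks on Zrf1 lay in 3 chains. They are therefore too narrow, and the difference by width was not tested.

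**Figure D2:**
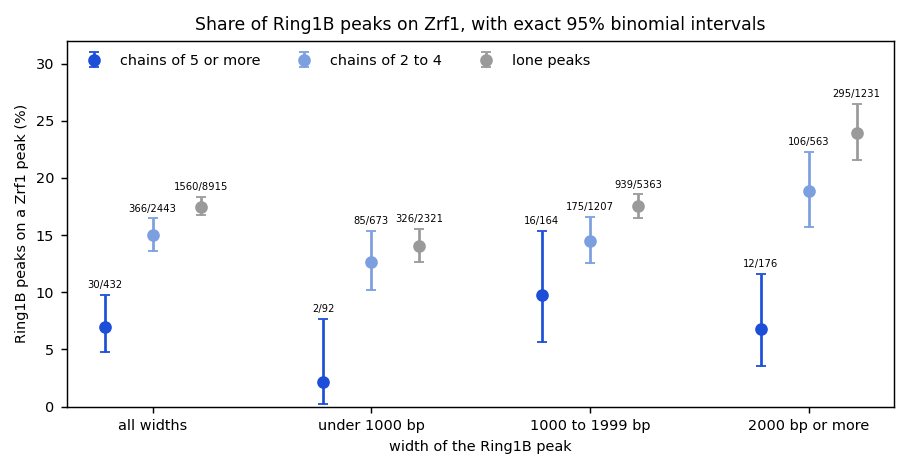
Percentage of Ring1B peaks that overlap a Zrf1 peak (y axis) by width of the Ring1B peak (x axis) for chains of 5 or more, chains of 2 to 4 and lone peaks, with exact 95% binomial intervals and the counts above each. Chain peaks of 2000 bp or more had 12 of 176 on Zrf1, while lone peaks of that width had 295 of 1231.

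Zrf1 peaks within the chains lay on Ring1B peaks, with 1 exception. Of the 31 Zrf1 peaks in the spans, 30 overlapped a Ring1B peak and 20 lay wholly on Ring1B. Ring1B covered 68.1% of the spans, and the median gap of 529 bp was below the median width of these Zrf1 peaks, 1051 bp. Many Zrf1 peaks placed anywhere in a span would therefore overlap Ring1B, and no expected count was computed. The exception was at Onecut3, 798 bp from the nearest Ring1B peak. Per Mb this made 32.1 Zrf1 centres on the Ring1B peaks of chains (exact Poisson 95% interval 21.7 to 45.9), against 2.28 between them (1 centre in 0.438 Mb, interval 0.0578 to 12.7). In the 10 kb on either side of the chains it was 6.76 per Mb (8 centres, interval 2.92 to 13.3), and at 100 to 500 kb it was 8.85 (interval 7.97 to 9.80). On the Ring1B peaks of chains of 2 to 4 the density was 85.3 per Mb (interval 76.6 to 94.7), and on lone Ring1B peaks it was 118 (interval 112 to 124). Pooled, the Ring1B peaks of the 61 chains were thus richer in Zrf1 centres than their surroundings and poorer than those of shorter chains. The peaks of shorter chains were in turn poorer than lone peaks. These intervals cover counting error only. The pooled value does not describe each chain. The Hox chains, with 260.0 kb of Ring1B-covered sequence, held 2 of the 31 Zrf1 peaks, and 3 unnamed chains held 11.

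**Figure D3:**
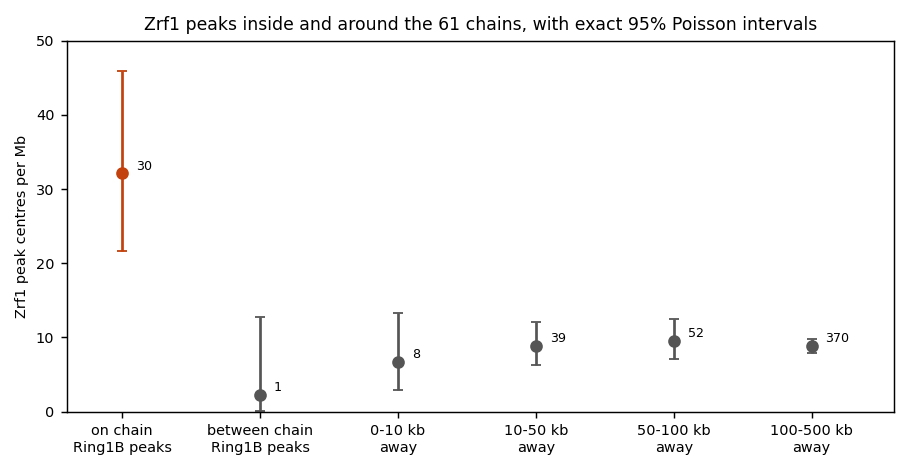
Zrf1 peak centres per Mb (y axis) on the Ring1B peaks of the 61 chains, between those peaks and in 4 distance classes outside the chains, with exact 95% Poisson intervals and the number of centres beside each point. The value on chain Ring1B peaks, 32.1 per Mb, stands above the 4 outside classes, which run from 6.76 to 9.56.

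Zrf1 was found at 12 of the 52 named chains (23.1%, interval 12.5 to 36.8%), with 17 Zrf1 peaks. The same count gave 29.5% for the 61 chains and 18.7% over all chains and lone peaks, whose spans are mostly much shorter. Of the 382 Ring1B peaks in named chains, 16 were on Zrf1 (4.19%, interval 2.41 to 6.71%), where the whole Ring1B list gave 16.6%. The 12 chains with Zrf1 included 5 of the 21 homeobox chains, 2 of 6 forkhead, 2 of 6 zinc finger, 1 of 7 Hox and the chain of Tfap2a. None of the 4 paired box chains or of the 2 T-box and 2 bHLH chains held one, nor did Sox1 or Dmrt3, and these groups are too small for a comparison. The Zrf1 peaks had a median width of 846 bp, where the whole Zrf1 list had 796 bp, and covered a median of 39.8% of the Ring1B peak they lay on.

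Onecut3 had the most Zrf1 peaks of the named chains, 3, at chr10:79952534-79969453. They measured 601 to 750 bp, and 17.9% of the Ring1B-covered bases lay under Zrf1. Its relative Onecut2, which like it encodes a cut-homeodomain factor of neurons and other tissues, had 1 Zrf1 peak of 750 bp at chr18:64492006-64507329. Dlx1-Dlx2 had Zrf1 peaks of 1051 and 1125 bp at chr2:71380343-71381394 and chr2:71383785-71384910, on neighbouring Ring1B peaks at 1 end of the chain. The matching Dlx5-Dlx6 chain had none, and its nearest Zrf1 peak was 165 kb away. Shox2, a homeobox gene of limb and heart, had Zrf1 peaks of 564 and 1014 bp within chr3:66772163-66790397. Hmx2-Hmx3, genes of inner ear and hypothalamus, had 1 of 866 bp within chr7:138683414-138701712.

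HoxC was the Hox cluster with Zrf1, at chr15:102784690-102785291 and chr15:102796782-102797539, both toward the same end of the chain. The Zrf1 peaks measured 601 and 757 bp, and 3.44% of the covered bases of that chain lay under Zrf1. The chains of HoxA, HoxB and HoxD had their nearest Zrf1 peaks 36.7 to 171 kb away. Sp8, a zinc finger factor of limb and forebrain, had 1 of 846 bp at the last Ring1B peak of chr12:120075048-120094077, with centres 4.5 bp apart. Tfap2a, a factor of the neural crest, had 1 of 879 bp on the first Ring1B peak of chr13:40818204-40835272.

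Foxf1, a mesoderm factor, and Foxc2-Foxl1, its neighbour 17.6 kb further on, each held 1 Zrf1 peak. At Foxf1 (chr8:123598194-123613761) it was 662 bp on a Ring1B peak of 2257 bp. At Foxc2-Foxl1 (chr8:123631372-123653262) it was 1920 bp, the widest at a named locus, on a Ring1B peak of 1766 bp. Zfp503, a zinc finger repressor, had 1 Zrf1 peak of 1322 bp inside a Ring1B peak of 6851 bp at chr14:22800639-22815063. The pattern at these loci therefore included both narrow Zrf1 peaks inside broad Ring1B and nearly coextensive pairs.

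The 9 chains without a named locus held 14 Zrf1 peaks, against 17 in the 52 named ones. Zrf1 lay in 6 of the 9. Over the whole Ring1B list 16.6% of peaks were on Zrf1, and in these chains 14 of 50 were (28%, interval 16.2 to 42.5%). Zrf1 peaks there had a median width of 1560 bp and covered a median of 84.3% of the Ring1B peak, and 12 of 14 met a reciprocal overlap of 50%, against 6 of 16 at named loci. The split into named and unnamed chains was made by hand with Zrf1 in view, so these values describe the chains as sorted and support no difference between kinds of locus.

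In these 9, Zrf1 was concentrated in 3 chains, with 11 Zrf1 peaks on 11 of their 20 Ring1B peaks. The chain at chr8:107777553-107807442 had the most Zrf1 of all, 5 peaks on 5 of its 7 Ring1B peaks, and 51.4% of its covered bases lay under Zrf1. The chain at chr16:17797310-17816782 had 3 Zrf1 peaks on 3 of 5 Ring1B peaks (41.2% of covered bases). The chain at chr4:88421794-88449808 had 3 on 3 of 8 (35.7%), all toward 1 end, with Zrf1 and Ring1B centres 2.5 to 100.5 bp apart. Single Zrf1 peaks lay in the unnamed chains at chr2:18609987-18622091, chr3:96135937-96155620 and chr16:18617444-18630801. None lay in those at chr3:96180259-96198095, chr15:98917345-98930121 and chr15:102993475-103009305.

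**Figure D4:**
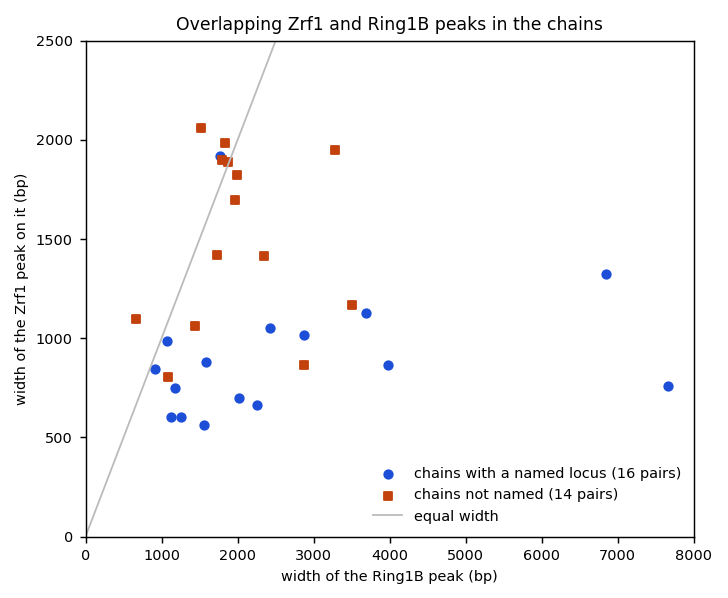
Width in bp of the 30 Zrf1 peaks that lie on a Ring1B peak of a chain (y axis) against the width of that Ring1B peak (x axis), for named chains (blue circles, 16 pairs) and chains not named (orange squares, 14 pairs), with a line of equal width. The median Zrf1 peak is 1560 bp wide in the chains not named and 846 bp in the named ones.

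Several chains at genes known for neural progenitors and brain regions held no Zrf1 peak, which was so for 43 of the 61 chains in all. Others at genes with known neural roles, such as Dlx1-Dlx2, Sp8, Onecut2, Onecut3 and Hmx2-Hmx3, did hold Zrf1. Sox1, a marker of early neural cells, was 27.1 kb from its nearest Zrf1 peak, and En1, a midbrain factor, 69.7 kb. Pou3f2 was 130 kb away, Pax6 439 kb and Otx2 466 kb. Gsx2 was 69.5 kb away and Nkx2-2 97.5 kb. Such distances were not computed for other Ring1B peaks or other positions, so whether they are particular to these chains is not known. Depth is unknown, so a missing peak does not show that Zrf1 is absent.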

How the data were processed

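The authors deposited the Ring1B and Zrf1 peaks of 1 library each as chromosome, start and end, with no header, score, height or p-value. Per the submitters' processing notes, Bowtie 0.12.7 and MACS 1.4.2 were used with the build mm9. For the calling threshold, the control and any later filter, the setting is not given in the sources used here. Whether starts count from 0 or 1 is not given either, and positions are printed as deposited. The settings decide how many peaks a stretch of signal gives. Lists were assigned to libraries by the antibody in their names.

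Ring1B peaks were sorted and chained (gaps of at most 5000 bp, 5 or more peaks), and chain counts and overlaps were checked against bedtools 2.31.1 and tested on simulated data. A chain holds a Zrf1 peak if one overlaps its span by at least 1 bp. Shares have exact Clopper-Pearson and densities exact Poisson 95% intervals. No test was run, since there is 1 library per antibody. The planned count of chains at annotated genes was not run, as no mm9 annotation was used. Loci were named by hand instead, with the gene spacing in GRCm38.p6 and the Zrf1 counts in view. Described in full were all chains with Zrf1, the 10 with the most covered bases and the 10 with the most peaks, except that 3 named chains, kept in all counts, are not reported singly here or drawn in the map. Members, lists and names were chosen with earlier results of these data known. Alternatives changed the gap, the peak number, the overlap rule, the Zrf1 peaks and the chains used. Scripts ran under Python 3.11.15, with SciPy 1.17.1 for intervals, NumPy 2.4.6 for arrays and matplotlib 3.10.9 for plots.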

Additional observations from a re-analysis of the deposited data

How the results depend on the processing

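The share of Ring1B peaks on Zrf1 was lower in the chains than outside them under all 11 alternatives that gave both shares. All of them reuse the same peak lists and are no independent checks. Counting starts from 1 left both shares unchanged, at 6.94% and 16.96%. Over 13 alternatives the share ranged from 3.49 to 11.7% in the chains, and over 11 alternatives it ranged from 13.4 to 18.9% outside them. With gaps up to 2000 bp there were 34 chains with 208 peaks, 6 with Zrf1, 3.85% of peaks and 1.47% of bases on Zrf1. With gaps up to 10000 bp there were 93 chains with 669 peaks, 44 with Zrf1, 11.7% of peaks and 6.90% of bases. From 4 peaks there were 123 chains with 680 peaks, 36 with Zrf1 and 7.07% of bases. From 6 peaks there were 39 chains, 10 with Zrf1. From 8 peaks there were 15 chains with 172 peaks, 3 with Zrf1, 3.49% of peaks and 1.90% of bases. These settings change which chains enter. With at least 50% covered the shares were 4.17% in chains and 13.8% outside, and with reciprocal 50% 4.17% and 13.4%, with 11 chains holding Zrf1 by that rule. Outside the chains the share was 18.9% within 1000 bp and 14.1% with Zrf1 peaks of at least the median width. Joining gaps of at most 100 bp first, chosen after seeing the data, gave 284 peaks in 41 chains, 9 with Zrf1. Leaving out the chain with the most Zrf1 peaks gave 5.88% and leaving out the Hox clusters, also chosen after seeing the data, 8.43%. The count of chains at annotated genes and its alternative were not run. No paired analysis was possible because each antibody has 1 library and no result comes from a test. Depth is unknown, so regions without a listed peak may still be bound.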

Other observations

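Among the 43 chains without Zrf1 in their span, the nearest Zrf1 peak lay 1.7 kb away at Lbx1, 5.10 kb at Nkx2-5, 6.86 kb at Pax3 and 803 kb at Isl1, with a median of 69.7 kb. It lay within 10 kb of 5 of these chains and within 100 kb of 28. Such distances were not computed for other Ring1B peaks or other positions, so these counts have no background beside them. At 100 to 500 kb from a chain there were 8.85 Zrf1 centres per Mb. At Lbx1, a homeobox gene of muscle precursors and dorsal spinal cord, counting the 5 kb beyond each end would add the chain to those with Zrf1, making 19 of 61. Neighbouring chains lay within 100 kb of each other in 6 places, among them the unnamed pair on chromosome 3, which are 24.6 kb apart and of which 1 held a Zrf1 peak.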
